A study of Mus musculus with 106 samples.

Results

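Matrix metalloproteinases (MMPs) and their tissue inhibitors (TIMPs) were read here as 10 protein-coding genes of 21938 in the annotation: the gelatinases Mmp2 and Mmp9, the collagenases Mmp8 and Mmp13, the macrophage elastase Mmp12, the membrane-type enzyme Mmp14, Mmp19, and the inhibitors Timp1, Timp2 and Timp3. They were chosen by name and not by a cutoff on a measured value, but with earlier results of these data known. At each gene, peaks of 2 histone marks were read in 70 libraries of the 106 samples of the series, and the 36 input samples were not used here. Chromatin immunoprecipitation with sequencing recovers DNA bound to a marked histone and calls intervals rich in fragments as peaks. H3K27ac is an acetyl mark found at active promoters and enhancers, and H3K4me3 is a methyl mark found at active promoters.

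All mice were C57BL/6J, with an age of 12 to 14 weeks given for their assignment to the control or diabetic group. Diabetic mice had received streptozotocin, a toxin of insulin-producing beta cells, at 42 to 45 mg/kg per day for 5 days. They were used 6 weeks later with a blood glucose over 13.9 mmol/L, and controls carried no streptozotocin treatment. "Haematopoietic stem cells" (HSCs) in the labels are bone marrow from which cells bearing CD3, CD4, B220, Ter119 or Gr1 had been removed, so other early cells of the marrow stay in the sample. Bone marrow-derived macrophages (BMDMs) were grown for 7 days in L929-conditioned medium with 5 mmol/L glucose, for diabetic and control animals alike. BMDMs were then given 100 ng/mL lipopolysaccharide and 10 ng/mL interferon-γ (LPS+IFN-γ) for 16 h, or medium alone (unstimulated). For each mark, control and diabetic HSCs, control unstimulated BMDMs and control and diabetic LPS+IFN-γ BMDMs had 6 libraries each, and diabetic unstimulated BMDMs had 5, with number 3 absent. The study's methods count individual animals as n, and the labels do not say which animal gave which library, so unstimulated and stimulated BMDMs may share animals.

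MMPs are zinc-dependent proteases that cut collagens, elastin and other matrix proteins, and most are secreted as inactive precursors. TIMPs bind active enzymes and block them. Mmp14 sits in the plasma membrane, where Timp2 can bridge it to the Mmp2 precursor that it activates, so the 3 products form a working unit. In atherosclerotic tissue, macrophages are a known source of several of these enzymes.

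In bulk chromatin, fewer cells of a type and less of a mark per cell cannot be told apart. Within a library, peaks were ordered by the authors' −log10 p, and the rank of the strongest peak within 1000 bp of any start site stands for the promoter, so that rank 1 is the strongest peak of the list. Tests used −log2 of the rank with a limit at 20000, and a promoter with a later rank or no peak was set to 20000. A positive difference therefore means a place nearer the top of the list in the group named first. A promoter was called at a Benjamini-Hochberg adjusted p under 0.05 (limma, over all genes tested).

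Regulatory DNA is shown for the genes that frame the results: the starts of Mmp13 and Mmp8, which carried almost no mark, those of Mmp14 and Timp1, and the strongest acetylated stretch of a distal region at Mmp14 and at Timp2. Each promoter is the 250 bases before the RefSeq start (GRCm38.p6), 5′ to 3′ on the strand of the gene, and each distal stretch is 300 bases centred on the strongest summit (GRCm38, plus strand). Capitals mark matches on either strand to AP-1 (TGANTCA), PU.1 (GAGGAAGT), RUNX (TGTGGT), the GC box (GGGCGG) or the TATA box (TATAAA). STAT (TTCNNNGAA) and NF-kB motifs were also searched and had no match in these 6 windows. 
Mmp13 promoter, chr9:7272264-7272513 (+): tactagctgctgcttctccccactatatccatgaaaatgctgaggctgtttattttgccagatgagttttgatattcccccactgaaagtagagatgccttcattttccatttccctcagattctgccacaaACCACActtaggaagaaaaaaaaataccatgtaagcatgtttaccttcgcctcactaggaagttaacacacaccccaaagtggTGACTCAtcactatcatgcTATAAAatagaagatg
Mmp8 promoter, chr9:7558179-7558428 (+): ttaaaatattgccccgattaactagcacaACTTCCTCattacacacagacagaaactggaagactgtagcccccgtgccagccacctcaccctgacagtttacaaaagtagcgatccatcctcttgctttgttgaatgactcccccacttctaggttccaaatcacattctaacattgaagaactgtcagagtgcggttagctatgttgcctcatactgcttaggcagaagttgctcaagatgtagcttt
Mmp14 promoter, chr14:54431348-54431597 (+): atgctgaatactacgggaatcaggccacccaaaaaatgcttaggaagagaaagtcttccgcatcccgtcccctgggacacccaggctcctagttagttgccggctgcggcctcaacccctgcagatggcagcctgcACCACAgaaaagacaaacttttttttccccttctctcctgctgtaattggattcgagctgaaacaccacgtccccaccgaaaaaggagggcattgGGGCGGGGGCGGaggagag
Timp1 promoter, chrX:20869916-20870165 (+): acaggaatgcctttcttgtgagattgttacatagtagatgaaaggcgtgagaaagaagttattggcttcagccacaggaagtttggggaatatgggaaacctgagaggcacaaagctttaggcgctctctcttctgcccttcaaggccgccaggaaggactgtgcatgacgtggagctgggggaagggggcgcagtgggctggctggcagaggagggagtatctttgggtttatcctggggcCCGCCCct
Mmp14 distal stretch, chr14:54443234-54443533: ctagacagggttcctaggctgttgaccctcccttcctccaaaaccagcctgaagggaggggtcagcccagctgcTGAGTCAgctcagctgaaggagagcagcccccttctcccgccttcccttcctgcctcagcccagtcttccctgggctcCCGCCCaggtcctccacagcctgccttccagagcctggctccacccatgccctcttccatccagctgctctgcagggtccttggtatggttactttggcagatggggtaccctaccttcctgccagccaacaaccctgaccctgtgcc
Timp2 upstream stretch, chr11:118363073-118363372: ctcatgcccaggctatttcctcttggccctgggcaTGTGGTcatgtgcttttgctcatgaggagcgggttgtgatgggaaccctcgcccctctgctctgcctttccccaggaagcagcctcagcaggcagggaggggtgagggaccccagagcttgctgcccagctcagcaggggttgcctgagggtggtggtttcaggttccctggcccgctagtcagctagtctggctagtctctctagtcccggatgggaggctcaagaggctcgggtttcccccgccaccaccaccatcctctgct

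The Mmp13 window held a RUNX match 118 to 113 bases before the start, an AP-1 match 35 to 29 bases before it and a TATA box 16 to 11 bases before it. The Mmp8 window held a PU.1 match 221 to 214 bases before the start. The Mmp14 window held a RUNX match 114 to 109 bases before the start and a pair of GC boxes at 19 to 14 and 13 to 8, and Timp1 held a GC box 8 to 3 bases before its start. The Mmp14 stretch, inside the gene and outside its exons, held an AP-1 match and a GC box, and the Timp2 upstream stretch a RUNX match. Of 32851 RefSeq promoters of the same length, 6.7% held an AP-1 match, 2.4% PU.1, 14.0% RUNX, 32.7% a GC box and 12.4% a TATA box, and of 44672 stretches drawn in the same way around H3K27ac regions, 5.4% held AP-1, 17.1% RUNX and 31.9% a GC box. A match describes the letters only. RefSeq promoters of the table matched 7 of the 10 genes, and Mmp2, Mmp9 and Mmp19 are named only. In 300 bases around the start, the share of G and C was 43.7% at Mmp13, 46.0% at Mmp8 and 38.7% and 40.7% at the Mmp12 starts, against 68.7% at Timp2, 67.0% at Timp3, 56.0% at Mmp14, 55.0% at Timp1 and a median of 52.7% over all promoters.

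Lists held 51162 to 176559 peaks for H3K27ac (median 124083) and 13730 to 277213 for H3K4me3 (median 96580), and the depth of sequencing is unknown, since no read totals are given. H3K4me3 of diabetic HSC library 6 had the 13730 peaks. Of the markers of each cell type, promoters with an H3K27ac peak numbered 10 to 11 of 11 progenitor genes per library in HSCs and 7 to 11 in unstimulated BMDMs, 2 to 8 against 5 to 9 of 9 macrophage genes, and 6 against 2 to 4 of 6 erythroid genes. Neutrophil lineage genes were at 2 to 7 of 9 in both. B lymphoid genes were at 1 to 5 of 5 in HSCs and 2 to 5 in unstimulated BMDMs. Stromal and endothelial genes were at 2 to 7 of 7 and 0 to 7. The defining progenitor genes were thus marked in HSCs, and erythroid promoters were marked with them. Most progenitor genes also had a peak in unstimulated BMDMs (median 10 of 11), so presence of a peak separates these cells poorly for that list. In 3 H3K27ac libraries of control BMDMs the stimulation label was doubtful. Over 78 genes nearer the top and 179 genes farther from it in LPS+IFN-γ than in unstimulated diabetic BMDMs (called genes without Mmp14), the mean −log2 rank of the former minus that of the latter was 0.64 and 0.34 in control unstimulated libraries 5 and 6 and −1.45 to −0.48 in the other 4. It was −0.87 in control LPS+IFN-γ library 5 and 0.17 to 1.47 in the other 5. The main results that rest on these 3 libraries are also given without them. For 4 H3K4me3 libraries, control LPS+IFN-γ 6, diabetic LPS+IFN-γ 1 and 2 and control unstimulated 6, an earlier reading of these lists had found the scaling unclear, and leaving them out changed no call of the 10 genes in that mark.

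The 10 promoters spanned nearly the full range from a mark in every list to none. Of 35 H3K27ac libraries, Mmp14 and Timp2 had a promoter peak in 35, Mmp2 in 33, Mmp9 in 32, Timp3 in 30, Mmp19 in 28, Timp1 in 15, Mmp8 in 3, Mmp13 in 1 and Mmp12 in 0. Over all genes, 47.0% had a peak in all 35 libraries and 17.9% in none. In H3K4me3, Mmp14 was marked in 35 libraries, Mmp2, Mmp9, Timp2 and Timp3 in 34, Timp1 in 20, Mmp19 in 8 and Mmp8 in 1, while Mmp12 and Mmp13 had no peak. For those 4 genes with 34, the library without a peak was diabetic HSC 6, the shortest list. By median H3K27ac rank over all libraries the order was Mmp14 (6556), Timp2 (7252), Mmp2 (32782), Mmp9 (37072), Timp3 (40161) and Mmp19 (60322), and neighbours in this order overlapped in their ranges over libraries.

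**Figure D1:**
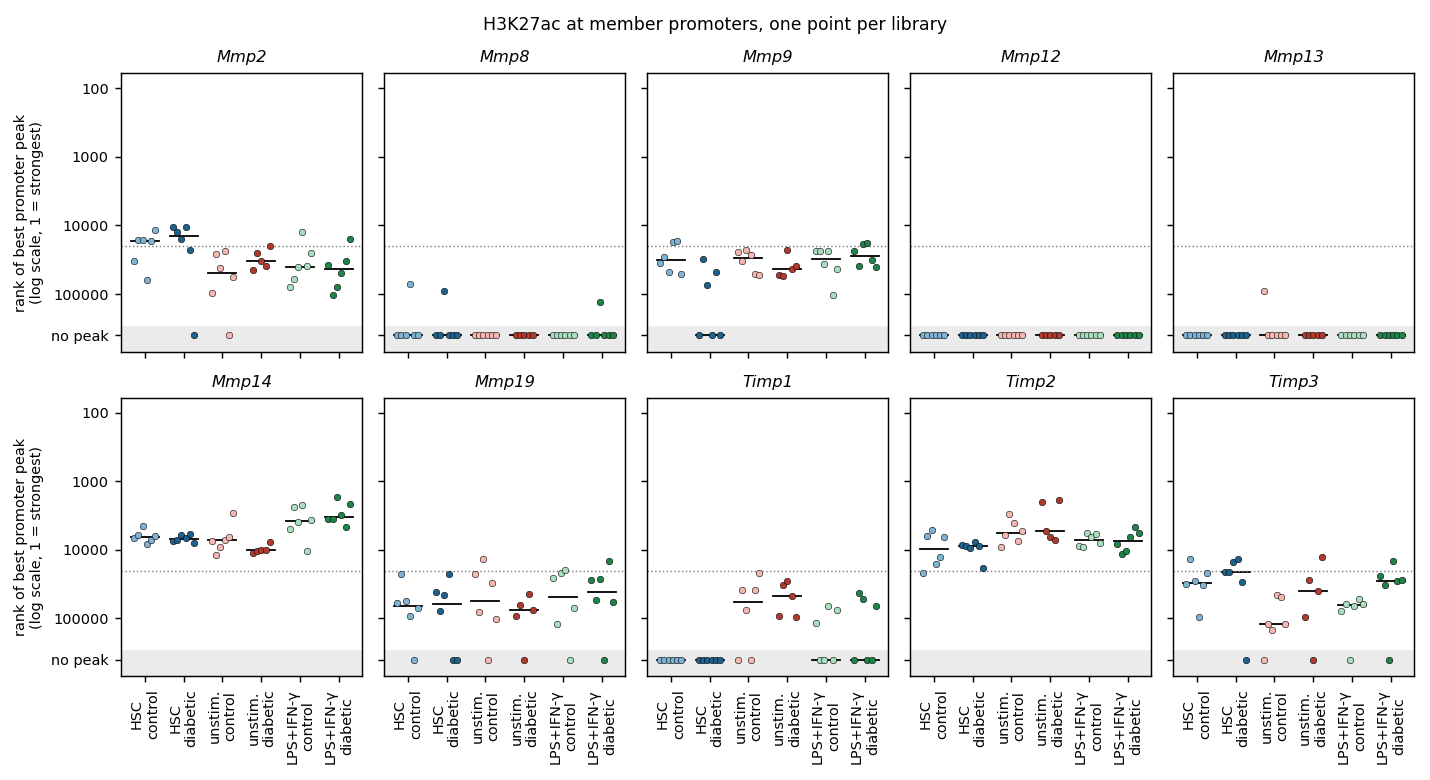
Rank of the strongest H3K27ac promoter peak of the 10 genes (vertical log axis, 1 = strongest, inverted), 1 point per library, with the group median as a black line, the rank limit of 20000 dotted and libraries without a peak in the grey band. Mmp14 and Timp2 lie above the limit in nearly all libraries, the Mmp2 points of HSCs lie above most of those of unstimulated BMDMs, Timp1 has peaks in BMDMs only, and Mmp8, Mmp12 and Mmp13 lie almost wholly in the grey band.

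HSCs were compared with unstimulated BMDMs to ask how the promoters differ between precursor and macrophage. Timp2 stood nearer the top of the H3K27ac list in BMDMs, Mmp2 nearer it in HSCs, and Timp1 had an H3K27ac peak in BMDMs only. The other members that could be fitted were not called. The Timp2 and Mmp2 calls are for the mean of control and diabetic mice. In diabetic mice alone both were called (Timp2 −1.32, limma adjusted p = 0.0158, and Mmp2 +0.49, adjusted p = 0.0234). In control mice alone neither was (−0.83, limma adjusted p = 0.116, and +0.26, adjusted p = 0.225). The difference between the disease groups was not called for either gene. Of the 10 genes, 6 could be fitted, since the values of Mmp8, Mmp12, Mmp13 and Timp1 all lay at the limit, and 2 of the 6 were called, against 29.8% of 14752 genes tested. A fitted gene has at least 1 library within the limit, so the count over the 6 describes those genes and not all members.

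Timp2, which inhibits MMPs and takes part in Mmp2 activation, ranked 5189 at best, 9623 in the median and 21788 at worst in control HSCs, and 7542, 8766 and 18062 in diabetic HSCs. In control unstimulated BMDMs the ranks were 3010, 5742 and 9016, and in diabetic ones 1980, 5236, 6439, 7252 and 1841. The diabetic groups did not overlap, while the control groups did. Here and below, the share of all genes or regions without overlap is not given, so a lack of overlap only describes the ranks. The difference of HSCs minus BMDMs was −1.08 in −log2 rank (SE 0.26, limma adjusted p = 0.00187), a rank 2.11-fold farther down the list in HSCs. Without the 3 doubted control libraries it was −1.13 (SE 0.28, adjusted p = 0.00356). The interval at the promoter was also longer in BMDMs, with a median of 2101 bp against 1376 bp in HSCs, and both exceeded the 402 bp of a typical H3K27ac peak.

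Mmp2, the gelatinase that cleaves type IV collagen, ranked 11771, 16697 and 61518 (lowest, median, highest) in control HSCs. In diabetic HSCs 5 of 6 libraries had a peak, at 10349 to 22912. Control unstimulated BMDMs had 23691 to 97431 in 5 of 6 libraries, and diabetic ones 44611, 25257, 32704, 39021 and 20220. Every unstimulated BMDM library thus lay beyond the limit, whereas 8 of 12 HSC libraries lay within it, and the untruncated ranks overlapped. The difference was +0.37 (SE 0.10, adjusted p = 0.00542) and +0.37 (SE 0.11, adjusted p = 0.0131) without the 3 doubted libraries. Since every BMDM value sat at the limit, the size is set by it, and with a limit of 50000 it was +0.87 (SE 0.28, adjusted p = 0.0189), but +0.77 (SE 0.31, adjusted p = 0.0601) with that limit and without the 3 libraries. The call also ended when peaks were ranked by fold enrichment (+0.30, adjusted p = 0.209) or genes were ranked among genes (+0.13, adjusted p = 0.376). Erythroid and progenitor promoters moved in the same direction, with 6 of 6 and 9 of 11 called as nearer the top in HSCs, and of 4 stromal and endothelial genes tested 1 was (Pdgfrb, +0.36). The part of these cells in the Mmp2 value was not tested.

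Timp1, the inhibitor that macrophages secrete on activation, had no H3K27ac promoter peak in 12 HSC libraries and a peak in 9 of 11 unstimulated BMDM libraries. In control BMDMs the ranks were 38706, 74516, 38228 and 21631 in libraries 2, 3, 5 and 6, and in diabetic BMDMs 91116, 32767, 28049, 47461 and 93969. All lay beyond 20000, so these were weak peaks. Fisher's exact test on the presence of a peak gave p = 6.73e-05 (two-sided, adjusted p = 0.00421 over the 4187 genes that could reach p = 0.05, of which 9.48% were called). Without control unstimulated libraries 5 and 6 it was 0 of 12 against 7 of 9 (exact p = 3.10e-04, adjusted p = 0.0129). With the limit at 50000, where 28.7% of 16687 genes were called, Timp1 differed by −0.32 (SE 0.10, adjusted p = 0.0179), and by −0.20 (SE 0.08, adjusted p = 0.0537) without the doubted libraries. The presence of a peak depends on where a list ends, and HSC lists held 51162 to 139452 peaks against 54313 to 175991 in unstimulated BMDMs. In H3K4me3 a Timp1 peak was found in 4 of 12 HSC and 7 of 11 BMDM libraries (exact p = 0.22, adjusted p = 0.368, with 9.78% of 3670 genes called). Timp1 lies inside Syn1 on the X chromosome (chrX:20870166-20874735), so a peak there cannot be given to 1 of the 2 genes by position alone.

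Mmp14 differed by +0.32 (SE 0.22, adjusted p = 0.296), Timp3 by +0.06 (SE 0.08, adjusted p = 0.607), Mmp9 by +0.04 (SE 0.02, adjusted p = 0.28) and Mmp19 by −0.05 (SE 0.05, adjusted p = 0.521), and none was called. Mmp14 was called once the 3 doubted libraries were left out (+0.48, SE 0.18, adjusted p = 0.0399, with 27.7% of genes called), and its sign turned when peaks were ranked by fold enrichment (−0.14, SE 0.43, adjusted p = 0.863). Timp3, an inhibitor that binds to the matrix and also blocks ADAM proteases, ranked 13364 to 96065 in control HSCs, 13616 to 29761 in 5 of 6 diabetic HSC libraries, 45876 to 147544 in 5 of 6 control unstimulated BMDM libraries and 12564 to 95694 in 4 of 5 diabetic ones. Most of these ranks exceed 20000, and with the limit at 50000 Timp3 was called as nearer the top in HSCs (+0.67, SE 0.22, adjusted p = 0.0232, and 0.0452 without the 3 libraries), while ranked by fold enrichment it differed by −0.03 (SE 0.10, adjusted p = 0.876).

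**Figure D2:**
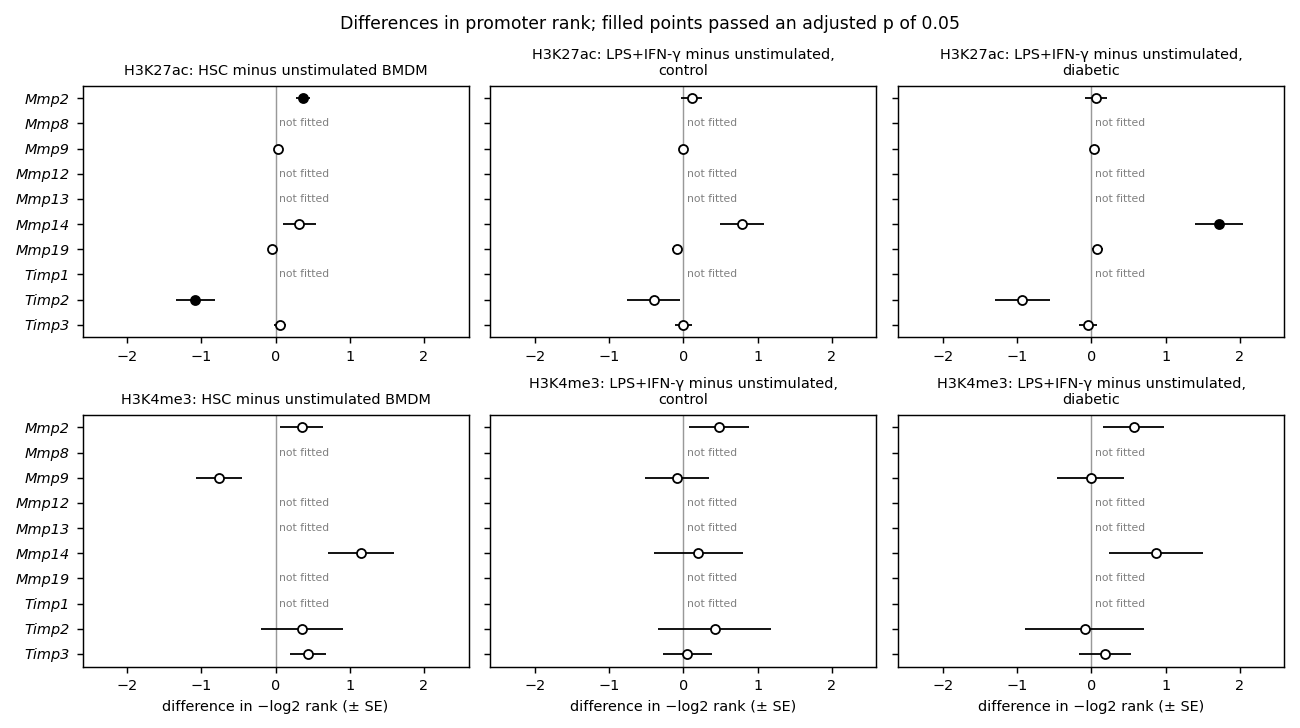
Difference in −log2 promoter rank with its SE for each gene that could be fitted (rows), for H3K27ac above and H3K4me3 below, in 3 comparisons (columns). Filled points passed an adjusted p of 0.05: Mmp2 and Timp2 between HSCs and unstimulated BMDMs, and Mmp14 after LPS+IFN-γ in diabetic BMDMs, all 3 in H3K27ac.

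LPS+IFN-γ, which drives macrophages to an inflammatory state, was compared with medium alone within each disease group. Mmp14 was nearer the top of the H3K27ac list after LPS+IFN-γ in diabetic BMDMs, and in control BMDMs it moved the same way without being called. Ranks in unstimulated diabetic BMDMs were 11175, 10419, 9910, 10009 and 7562, and after LPS+IFN-γ 1679 at best, 3326 in the median and 4680 at worst. The groups did not overlap, and how many of all genes would show the same is not given here. The difference was +1.72 (SE 0.32, adjusted p = 0.00669), a rank 3.3-fold nearer the top, and it was the only member called of the 6 fitted, against 1.75% of 14752 genes tested. Over control and diabetic libraries together, those of doubted label included, the median width of the Mmp14 peak was 1876 bp in HSCs, 2287 bp in unstimulated and 2890 bp in LPS+IFN-γ BMDMs. These widths were not split by disease group.

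In control BMDMs, Mmp14 ranked 7363, 11733, 9035, 7134, 6556 and 2905 without stimulation, and 5003, 2391, 3873, 2227, 10508 and 3658 with it. The 2905 and the 10508 belong to libraries whose labels were doubted, and the groups overlapped through them. The difference was +0.79 (SE 0.30, limma adjusted p = 1). Of the members fitted 0 were called and 1, Mmp14, had an unadjusted limma p under 0.05, with 0% of all genes called and 724 genes under 0.05. Without the 3 doubted libraries it was +1.40 (SE 0.27, adjusted p = 0.00876, with 0.707% of 14715 genes called). These libraries were doubted for how genes that respond in diabetic BMDMs stood in them, so leaving them out favours a call, and this value describes the remaining libraries. The difference between the diabetic and the control response was +0.93 (SE 0.44) and was not called (limma adjusted p = 0.86). Without the 3 doubted libraries it was +0.32 (SE 0.36, limma adjusted p = 1, with 0% of genes called). With all libraries this difference was not called for any member in either mark, for stimulation or for cell type (0% of all genes in each). Ranked by fold enrichment, the diabetic response of Mmp14 was +2.78 (SE 0.62, adjusted p = 0.0563). Of the markers of stimulated macrophages, 0 of 6 tested were called in either group, where few genes were called at all, and their median difference was +0.12 in diabetic BMDMs beside −0.02 over all genes.

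Timp2 moved away from the top in diabetic BMDMs after LPS+IFN-γ, from the 5 ranks above to 4685, 7400 and 11336 (lowest, median, highest), by −0.93 (SE 0.37), which was not called (limma adjusted p = 0.199). In control BMDMs the ranks after LPS+IFN-γ were 5703, 7264 and 8960, a difference of −0.40 (SE 0.36, adjusted p = 1). Mmp2, Mmp9, Mmp19 and Timp3 had differences of −0.09 to +0.11 in both disease groups, sizes largely set by the limit. Of 11 unstimulated BMDM libraries, 0, 0, 1 and 1 ranked within 20000 at these genes in that order. Of 12 LPS+IFN-γ libraries, 2, 2, 2 and 1 did. A shift among later ranks could therefore not show in this fit. Timp1, which could not be fitted, had an H3K27ac peak in 6 of 12 LPS+IFN-γ and 9 of 11 unstimulated libraries. This was not called (Fisher's exact test, adjusted p = 0.908, with 0 of 4157 testable genes called). The counts were 3 of 6 against 5 of 5 in diabetic and 3 of 6 against 4 of 6 in control BMDMs.

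Diabetic and control mice were compared within each cell state, the question the study was designed for. No member was called in any of the 6 comparisons over both marks. A rank within a list cannot show a gain of a mark shared by most of its peaks. The power of these tests was not measured. A simulation compared HSCs with unstimulated BMDMs, in larger groups than those of disease. It recovered 33 of 100 genes shifted by 1 for H3K27ac and 0 of 100 for H3K4me3. Its noise included differences between groups, so these counts do not give the power for disease. The absence of calls therefore does not show that disease left these promoters unchanged. In H3K27ac 0% of genes were called in HSCs, 0.00678% in unstimulated BMDMs and 0% in LPS+IFN-γ BMDMs, with 444, 801 and 567 genes at an unadjusted limma p under 0.05, and in H3K4me3 0%, 0.00643% and 0%, with 621, 610 and 939. Fisher's exact test on the presence of a peak was no check here, since at most 1 member in any of these comparisons could have reached p = 0.05. Without the 3 doubted libraries no member was called either in unstimulated (0.0068% of 14715 genes) or LPS+IFN-γ BMDMs (0%). The Mmp14 difference then went from −0.50 (SE 0.32) to −0.17 (SE 0.27) in unstimulated and from +0.43 (SE 0.30) to +0.15 (SE 0.24) in LPS+IFN-γ BMDMs. Mmp9 had an H3K27ac peak in 6 of 6 control HSC libraries, at 16799 to 51824, and in 3 of 6 diabetic ones, at 30411, 73564 and 47000. Its difference was −0.07 (SE 0.03, limma adjusted p = 1), and it was the only member of either mark with an unadjusted limma p under 0.05 for disease. The 3 diabetic libraries without a peak had 51162, 68588 and 93958 peaks in all, and control HSC lists had 100045 to 139452, so list length moved with disease here. With list length as a covariate in the fit, again no member was called for disease in HSCs. The part of list length in the presence of an Mmp9 peak was not tested. In H3K4me3 of HSCs, Timp2 ranked 14470, 366, 860, 7192, 9869 and 729 in controls and 1651, 4042, 7847, 6680 and 7301 in 5 of 6 diabetic libraries, a difference of −1.29 (SE 0.76, adjusted p = 1). The spread among controls was wider than the shift between groups.

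To read beyond the promoters, H3K27ac regions were merged over the whole genome from the top 20000 peaks of each library. Those found in at least 2 libraries were kept, promoters included. Of 44672 such regions, 30 lay within 10 kb of a member: 9 at Mmp14, 7 at Mmp2, 5 at Timp2, 4 at Mmp19, 3 at Mmp9, 1 at Timp1 and 1 at Timp3. Mmp8, Mmp12 and Mmp13, which lie near each other on chromosome 9, had none. Of the 30, 17 touched a member gene and 9 held a start site of a member or a neighbour. At Mmp19 1 of the 4 touched the gene, and the 1 at Timp1 did not. Regions over a member promoter repeat the promoter results above. Between HSCs and unstimulated BMDMs 5 of the 30 were called, against 17.5% of all regions. Of these, 4 stood nearer the top in BMDMs, and the Mmp2 promoter (+0.37, SE 0.11, adjusted p = 0.0146) was nearer the top in HSCs. One of the 4 was the Timp2 promoter (−1.08, SE 0.26, adjusted p = 0.00237).

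A region 3.1 to 11.1 kb upstream of Timp2 (chr11:118358823-118366831, 8009 bp, intergenic), which holds the Timp2 stretch shown above, ranked 11866, 15812 and 35758 (lowest, median, highest) in 12 HSC libraries. In unstimulated BMDMs it ranked 991, 6240 and 10118 and in LPS+IFN-γ BMDMs 98, 4557 and 8620. No HSC library overlapped either BMDM state, and how many of all regions would show the same is not given here. The difference between HSCs and unstimulated BMDMs was −1.89 (SE 0.54, adjusted p = 0.0126), and −2.04 (SE 0.59, adjusted p = 0.016) without the doubted libraries. After LPS+IFN-γ it differed by +1.55 (SE 0.79, adjusted p = 0.353) in diabetic and by +0.11 (SE 0.75, adjusted p = 1) in control BMDMs.

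At Mmp14, a region 11.2 to 13.1 kb from the start (chr14:54442830-54444726), which overlaps annotated exons and UTRs near the end of the gene and holds the Mmp14 stretch shown above, ranked 16490 to 76040 in 11 of 12 HSC libraries. In unstimulated BMDMs it ranked 888, 7127 and 16933 and in LPS+IFN-γ BMDMs 835, 1950 and 7589. The difference between HSCs and unstimulated BMDMs was −1.69 (SE 0.38, adjusted p = 0.00144), and −1.64 (SE 0.40, adjusted p = 0.00431) without the 3 libraries. With all libraries, the Mmp14 promoter was thus not called between these cells while a region within the gene was, and the difference between these 2 sites was not tested. The 4th region nearer the top in BMDMs lay 27.7 to 29.1 kb from the Mmp2 start (chr8:92854990-92856428), over the start of Lpcat2, a lysophospholipid acyltransferase gene. It ranked 3910 to 12001 in HSCs and 297 to 3316 in unstimulated BMDMs, with a difference of −2.49 (SE 0.38, adjusted p = 1.11e-05), and it lies outside Mmp2.

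After LPS+IFN-γ in diabetic BMDMs 3 member regions were called, all at Mmp14, against 1.23% of all regions. They were the promoter (+1.72, SE 0.32, adjusted p = 0.00718), the region near the end of the gene (+2.22, SE 0.55, adjusted p = 0.0356) and a region without exons that begins 9.7 kb from the start (chr14:54441303-54442602; +1.01, SE 0.25, adjusted p = 0.0325). The region without exons ranked 30945, 24717, 52172, 56563 and 29293 without stimulation and 4251, 11812 and 14253 (lowest, median, highest) with it, and the groups did not overlap. The region near the end ranked 5641, 9615, 7127, 16933 and 10318 without stimulation and 835, 1586 and 7589 with it, and here they overlapped. These 2 calls ended when peaks were ranked by fold enrichment (adjusted p = 0.198 and 0.23), and each depended on single libraries, as set out in the closing section. In control BMDMs 0 member regions were called, with 0.00224% of all regions called. Without the 3 doubted libraries, which again favours a call, the promoter (+1.40, adjusted p = 0.00861) and a region 7.5 to 9.6 kb from the start (chr14:54439133-54441184; +1.07, adjusted p = 0.0258) were called, against 0.668% of all regions.

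**Figure D3:**
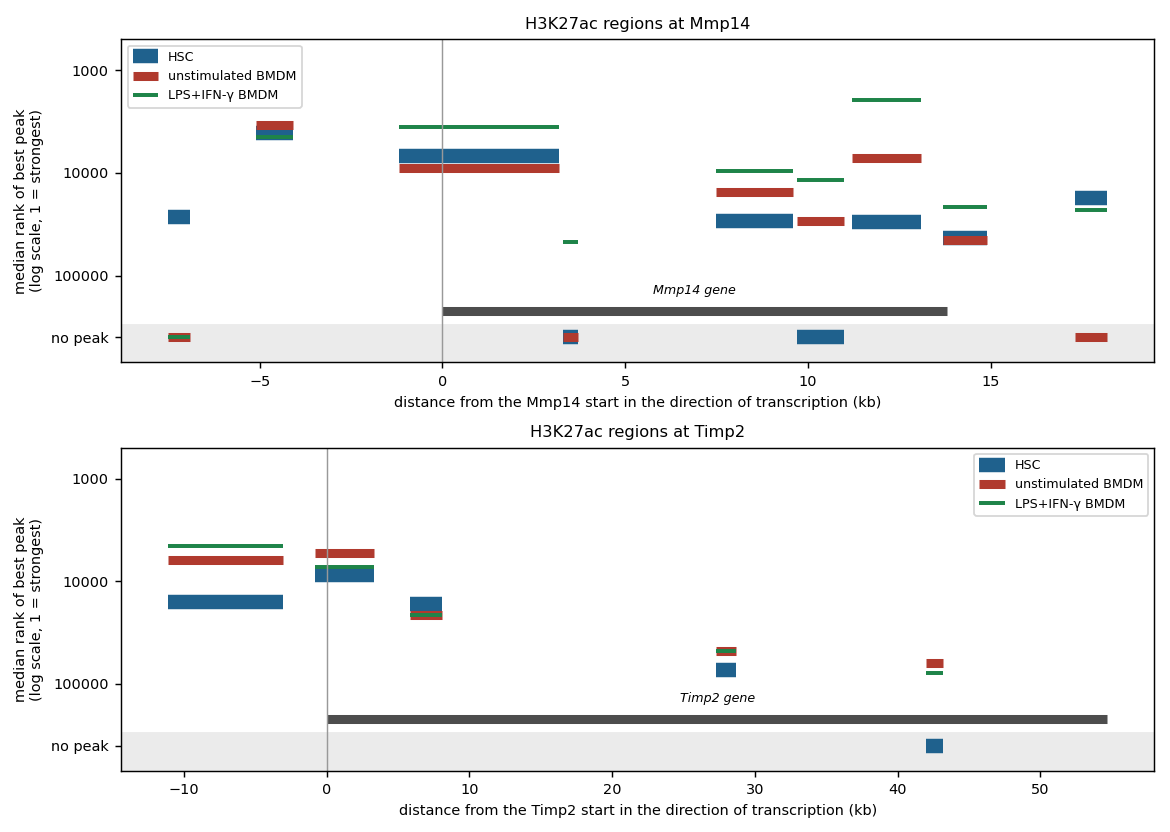
Median rank of the strongest H3K27ac peak (vertical log axis, inverted) over each region at Mmp14 and Timp2, drawn at its distance in kb from the gene start, in HSCs (12 libraries), unstimulated BMDMs (11) and LPS+IFN-γ BMDMs (12), with the gene as a grey bar. The HSC line lies below both BMDM lines upstream of Timp2 (median rank 15812 against 6240 and 4557) and at the end of Mmp14 (30310 against 7127 and 1950).

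**Figure D4:**
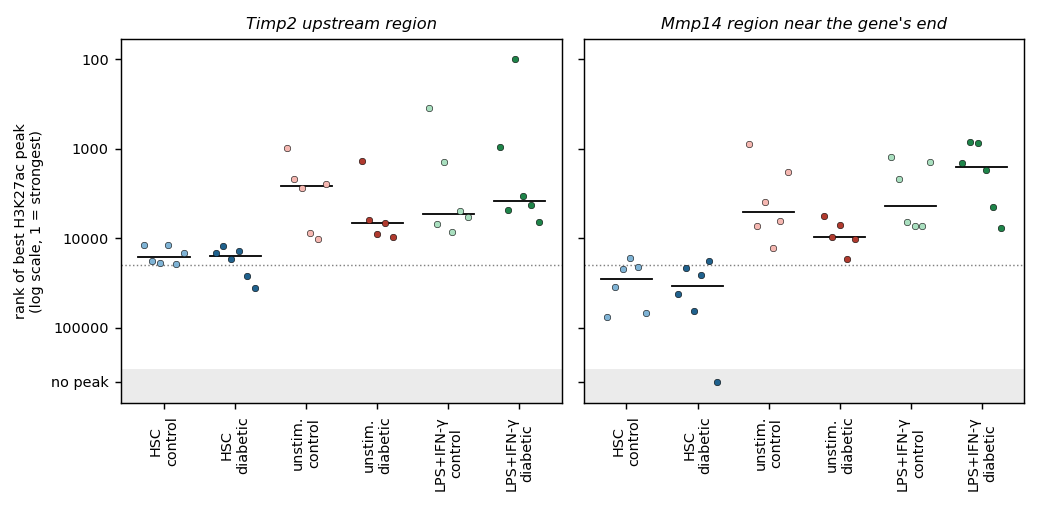
Rank of the strongest H3K27ac peak per library over the Timp2 upstream region and the Mmp14 region near the end of the gene (vertical log axis, inverted), with group medians as black lines and the limit of 20000 dotted. All 12 HSC points of the Timp2 region lie at ranks of 11866 or later, and all BMDM points at 10118 or earlier.

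The promoters of the 3 enzymes of the chromosome 9 cluster were close to unmarked in all states, while the wider windows around them held peaks in part of the libraries. Mmp12, an elastase known from macrophages, had no promoter peak of either mark, Mmp13 had 1 H3K27ac peak, at rank 89751 in an unstimulated BMDM library, and Mmp8, the collagenase of neutrophils, had 3, at 71623, 89528 and 132488. With 10 kb flanks, any H3K27ac peak was found at Mmp8 in 22 of 35 libraries, at Mmp12 in 15 and at Mmp13 in 13, and none of these peaks ranked within 20000. At Mmp13, 6 of 6 control LPS+IFN-γ libraries had such a peak, the strongest at rank 26942, against 2 of 6 control unstimulated, 2 of 6 diabetic LPS+IFN-γ and 1 of 5 diabetic unstimulated libraries. No test was run on these counts. In H3K4me3 a peak was found in the same windows at Mmp8 in 5 of 35 libraries and at Mmp13 in 14, none within 20000. The Mmp12 window, into which the neighbouring Mmp1b reaches, had an H3K4me3 peak in 30 of 35 libraries, 11 of 11 unstimulated BMDM libraries among them. Of these, 4 lay within 20000, 3 in HSCs and 1 in unstimulated BMDMs, the strongest at rank 7013.

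In H3K4me3 Mmp14 and Timp2 again had the strongest promoter peaks, and the order of Mmp2, Mmp9 and Timp3 was the reverse of that in H3K27ac, with medians of 16283, 12786 and 10924. No member was called between cell types, with 10.8% of 15542 genes called, and 5 members could be fitted. After LPS+IFN-γ 0 members were called in control BMDMs (0% of genes, 636 at an unadjusted limma p under 0.05) and 0 in diabetic ones (0.00643% of genes, 1094 under 0.05). Mmp14 ranked 427, 3579 and 8860 (lowest, median, highest) in 12 HSC libraries and 3023, 6213 and 16090 in 11 unstimulated BMDM libraries. The difference was +1.15 (SE 0.44, limma adjusted p = 0.0827). Mmp9 ranked 10314 to 27187 in 11 of 12 HSC libraries (median 14908) and 2145 to 23262 in BMDMs (median 11241), a difference of −0.76 (SE 0.31, limma adjusted p = 0.108), and these 2 genes were the members with an unadjusted p under 0.05. With promoters of 2500 bp to either side it was −0.95 (SE 0.30, adjusted p = 0.0401). Timp3 differed by +0.44 (SE 0.24, adjusted p = 0.232), Timp2 by +0.36 (SE 0.55, adjusted p = 0.709) and Mmp2 by +0.35 (SE 0.29, adjusted p = 0.451).

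The Mmp9 signal lay inside the gene. Mmp9 has 4 annotated starts, the outermost at 0 kb and others 7.4, 9.9 and 13.6 kb downstream. The strongest H3K4me3 promoter peak was nearest the outermost start in 0 of 34 libraries, nearest the start at 7.4 kb in 10, at 9.9 kb in 19 and at 13.6 kb in 5. For H3K27ac these counts were 8, 16, 6 and 2 of 32. At Mmp14, which has 7 annotated starts, the strongest peak of each mark reached within 1000 bp of the outermost start in 35 of 35 libraries, with a median midpoint 0.9 kb downstream of it for H3K27ac and 0.6 kb for H3K4me3. The Mmp9 values thus describe its internal starts more than its outermost one.

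**Figure D5:**
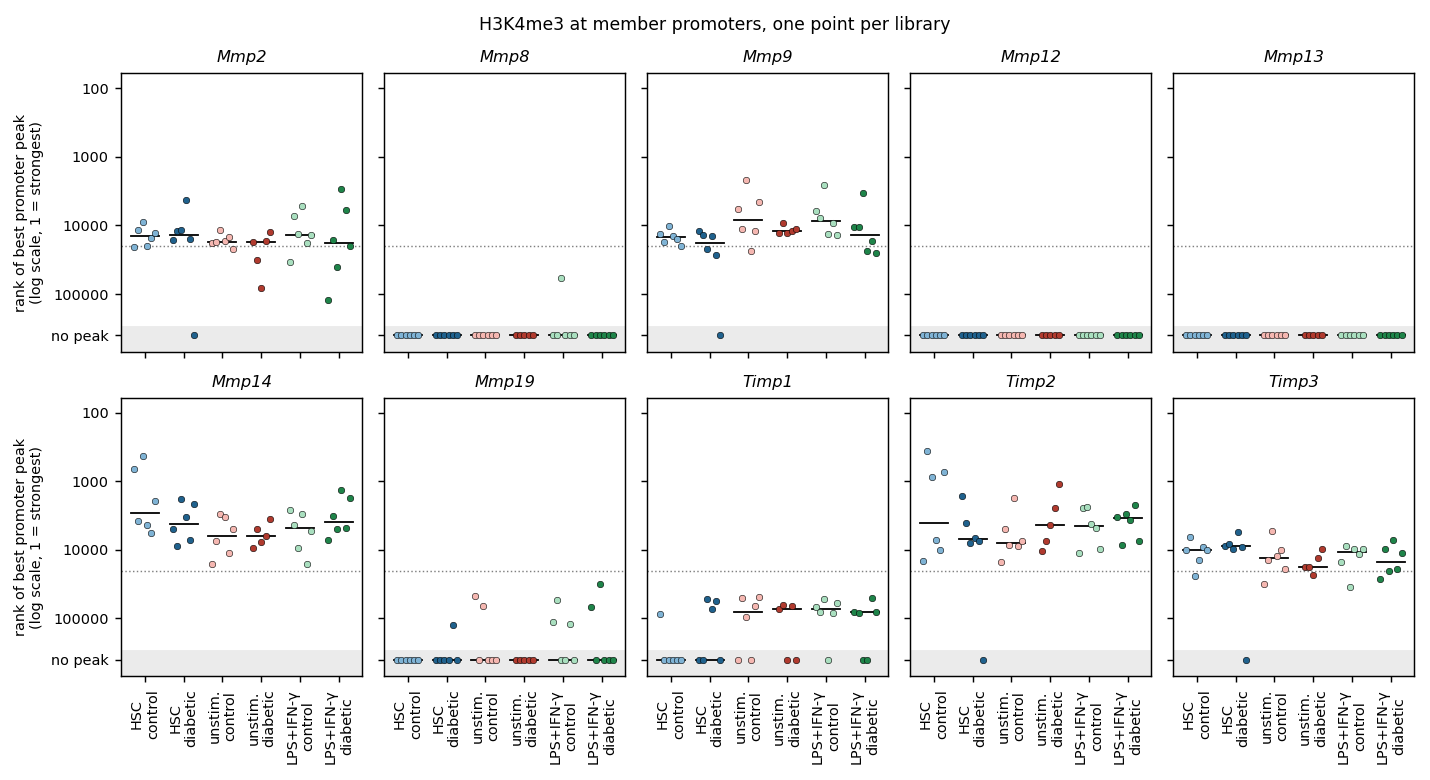
Rank of the strongest H3K4me3 promoter peak of the 10 genes, drawn as for H3K27ac (vertical log axis, inverted, 1 point per library, black line = group median, grey band = no peak). Mmp14 and Timp2 have the strongest peaks, Mmp2, Mmp9 and Timp3 lie within the limit of 20000 in 26, 29 and 28 of 35 libraries, and Mmp8, Mmp12, Mmp13 and Mmp19 lie mostly in the grey band.

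Related genes from 2 lists were read in the same H3K27ac fit. Of 17 genes, the other MMPs and Timp4, 16 are annotated and 8 were tested, and 1 was nearer the top in HSCs than in unstimulated BMDMs, the membrane-type enzyme Mmp15 (+0.42, SE 0.11, adjusted p = 0.00349, median rank 12962 against 29775). None was nearer the top in BMDMs. Of 23 activators, partners and other matrix proteases 22 were tested, with a median difference of −0.22 beside 0.08 over all genes, and 1 was nearer the top in HSCs and 5 in BMDMs. These counts, 1 of 8 and 6 of 22, are no higher than the 29.8% of all genes called, and the called genes are given as a description. Adam10, a membrane sheddase, was higher in HSCs (+1.19, SE 0.36, adjusted p = 0.0109). Lrp1, an endocytic receptor that clears proteases and their inhibitor complexes, had the largest of the 6 called differences, with a median rank of 23536 in HSCs and 3374 in BMDMs (−2.35, SE 0.30, adjusted p = 6.05e-07). The other 4 were the sheddases Adam9 (−1.42, adjusted p = 6.27e-04), Adam15 (−0.99, adjusted p = 7.26e-04) and Adam19 (−0.73, adjusted p = 0.00319) and the lysosomal protease Ctsl (−1.10, adjusted p = 0.0464). Of the 6 members fitted the median was 0.05. No gene of either list was called for stimulation within a disease group or for disease in H3K27ac, and none between cell types in H3K4me3, where 9 and 21 were tested.

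The genes whose H3K27ac promoter value followed each member most closely over the 35 libraries are given as a description, by Pearson r. These libraries differ in cell state and list length, and the part of these in r was not tested. For Mmp14 they were H2-Q7 (0.777) and Clic5 (0.769), and for Timp2 Gpr160 (0.824), Plekhh2 (0.808) and Gas2l1 (0.793). For Mmp2 they were Lysmd2 (0.878), Srl (0.812) and Gpc5 (0.812), and for Mmp9 Cxcr5 (0.854), Gm525 (0.842) and Slc23a1 (0.832). For Timp3 they were Fgf9 (0.782), Pknox2 (0.714) and Ccn2 (0.706), and for Mmp19 Il23a, Mpeg1 and Zbtb32, each at 0.751. Mmp2, Mmp9, Mmp19 and Timp3 were within the limit in only 10, 4, 3 and 5 of 35 libraries, so their r rests on those libraries.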

How the data were processed

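H3K27ac and H3K4me3 libraries of HSCs and BMDMs were grouped as labelled. The 10 members, the gene lists and the tests were chosen with earlier results of these data known. The submitters' processing notes name Trim Galore 0.3.3, cutadapt 1.8, FastQC 0.11.3, Bowtie2 2.2.6, Picard 2.18.14 and 2.19.2, bedtools 2.19.1 and MACS2 2.2.7.1 with GRCm38, for reads of 50 bp. Peaks had been called per library. In the deposited lists each peak has a score, a ratio (fold enrichment over background), a −log10 p and a −log10 q, made by the authors and meaningful only within 1 list. The lowest −log10 q was 1.3. Here a peak is 1 interval with its highest −log10 p, and 0 of 7828714 peaks exceeded the lengths of the 21 chromosomes of GRCm38.

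Promoters reached 1000 bp to either side of 93513 start sites (GENCODE M21), and loci added 10 kb to the gene. Values were −log2 of the rank by −log10 p, set to at most 20000. Genes with a peak in at least 5 of 35 libraries were fitted with limma 3.58.1 (R 4.3.3, trend) over the 6 groups of a mark, with Benjamini-Hochberg adjustment. A gene whose values were all at the limit could not be fitted. Presence was tested with Fisher's exact test (scipy 1.17.1, two-sided). On simulated data for HSCs against unstimulated BMDMs, 33 of 100 genes shifted by 1 and 77 of 100 shifted by 2 were recovered for H3K27ac (14752 genes, with 11 false calls), and 0 and 26 of 100 for H3K4me3 (15542 genes, with 1 false call). The simulated noise was each gene's spread over all 35 libraries, differences between groups included. Shifted genes were drawn from those with a mean rank well within the limit, so the recovery does not describe genes near it. Named were the 10 members, called genes of the lists, the 3 genes most like each member with a peak in at least 12 H3K27ac libraries (1 of them is not reported here), and called regions, the Mmp13 counts being chosen after their values were seen. Read totals are not given, so depth is unknown and no interval was computed.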

Additional observations from a re-analysis of the deposited data

Results flagged for a closer look

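The distance of an extreme library from its closest neighbour was set against the range of its group and read by Dixon's 95% critical value. Of 49 groups of member promoters with a peak in every library, 2 had such a library, and chance gives about 1 in 20. The H3K27ac peak of Timp2 in diabetic HSC library 6 ranked 18062, with the other 5 libraries at 7542 to 9520 (ratio 0.733), and this library has the shortest H3K27ac list of 35, with 51162 peaks. The H3K4me3 peak of Timp3 in control LPS+IFN-γ BMDM library 3 ranked 34576, with the other 5 at 8893 to 14768 (ratio 0.626).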

How the results depend on the processing

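Counts of members called were recomputed for 16 comparisons under 214 settings other than leaving out single libraries: 200 stayed within 1.5 times the reported count and 14 moved. A count has no direction, so a change of sign, as for Mmp14 and Timp3 ranked on fold between cell types, was not scored here. For H3K27ac in HSCs against unstimulated BMDMs (2 members), the count was 1 with a limit of 10000, 4 with a limit of 50000, 1 ranked on fold, 1 by Fisher's exact test and 4 with a limit of 50000 and list length as covariate (chosen after seeing the data). For stimulation in control BMDMs (0) it was 1 without the 3 doubted libraries, also with a limit of 50000 (chosen after seeing the data). For stimulation in diabetic BMDMs (1) it was 0 ranked on fold. Fisher's exact test also gave 0 there, but no member could have reached p = 0.05, so that count says nothing about the call. For H3K4me3 between cell types (0) it was 1 with promoters of 2500 bp and 1 with the replicate block, Mmp9 in both (with the block −0.87, SE 0.25, adjusted p = 0.026). Region counts became 15 with a limit of 50000 (5 reported, cell types), 2 without the 3 libraries (0 reported, control stimulation) and 1 ranked on fold (3 reported, diabetic stimulation). By construction a wider limit leaves fewer ranks at it and fewer libraries enter when some are left out; otherwise the cause was not tested.

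Leaving out 1 library at a time gave H3K27ac counts of 2 to 2, 0 to 0 and 1 to 1 for cell type, control and diabetic stimulation, and 0 to 0 for disease. H3K4me3 gave 0 to 1 for cell type (1 without control unstimulated BMDM 4) and 0 to 0 elsewhere. Regions gave 5 to 6, 0 to 0 and 1 to 3, the 1 without diabetic unstimulated BMDM 2 or 5 or diabetic LPS+IFN-γ BMDM 2 or 3. Library numbers were not taken to pair samples: of 68 pairs of deviations with the same number 13 had a correlation over 0.1 (−0.241 to 0.354), and in 0 of 12 pairs of groups were all over 0.1. Between stimulated and unstimulated diabetic BMDMs, however, same-numbered libraries correlated at 0.0513 to 0.354 in H3K27ac (mean 0.155, against −0.0304 for other numbers) and at a mean of 0.113 in H3K4me3 (−0.0224 for other numbers). The block otherwise changed the call of the Mmp14 region without exons after stimulation in diabetic BMDMs (+0.92, adjusted p = 0.0503). The median difference of all genes reached 0.14 ranked on fold and 0.13 ranked among genes, against 0.08 as reported. Unknown depth limits what absent peaks can show.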
